A study of Mus musculus with 2 samples.

Results

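Zfp36 (tristetraprolin), Zfp36l1 and Zfp36l2 are the 3 members of the Zfp36 family of RNA-binding proteins described here. They were selected on the measurements of these libraries. They are the rows of the count matrix with these gene symbols, 3 of 31053 genes, and they were chosen by their level in each lineage and by the ratio between libraries, with Zfp36 and Zfp36l2 going opposite ways in B cells. That contrast is therefore given as a description. A further mouse gene of the family, Zfp36l3, had 0 UMIs in both libraries, which allows up to 3 UMIs in each.

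The proteins of the family carry a pair of CCCH zinc fingers that bind AU-rich elements in the 3′ untranslated regions of mRNAs and recruit the CCR4-NOT deadenylase, so that the bound mRNA loses its poly(A) tail and is degraded. Zfp36 is also known as an immediate early gene that is switched on within minutes of stimulation, and its protein is held inactive by phosphorylation and 14-3-3 binding. In lymphocytes Zfp36l1 and Zfp36l2 are known for restraining the cell cycle during B and T cell development and for quiescence, and Zfp36 for limiting cytokine mRNAs.

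The study asked how butyrate, a short-chain fatty acid made by gut bacteria, acts on the lymph node that drains the airways in allergic asthma. Single-cell RNA was measured in mediastinal lymph node cells of WT mice of strain C57/B6J with asthma induced by ovalbumin (OVA), an egg protein given by injection with alum and then into the nose. Of the 2 libraries, 1 came from such mice without butyrate (w/o butyrate) and 1 from such mice supplemented with butyrate (w/ butyrate). Each library pooled 4 mice. Both groups carry the OVA model and neither is an untreated node. The ages of these mice are not in the labels. The paper gives only an age range for all its mice, matched by age and sex within each experiment. The route by which butyrate reached the mice is not stated for these libraries. With 1 library per condition no test was possible, so there is no replicate error and no p-value. Intervals are 95% and exact, and they cover counting error only. A difference between the libraries cannot be told apart from a difference between the pools of mice or in the preparation of the libraries.

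The 3 genes lie on the minus strand of different chromosomes and have 2 exons each (GENCODE M21, GRCm38). Zfp36 (ENSMUSG00000044786) is at chr7:28376784-28380253, Zfp36l1 (ENSMUSG00000021127) at chr12:80107754-80113013 and Zfp36l2 (ENSMUSG00000045817) at chr17:84183931-84187947. The coding sequence that spans both zinc fingers is shown because it is what makes these genes one family. In each gene it lies in exon 2, measures 174 bases or 58 codons, and holds 2 matches to the spacing of a CCCH finger. The capitals mark the codons of the cysteines and histidines that hold the zinc, at chr7:28378044-28378217, chr12:80110075-80110248 and chr17:84186554-84186727.
Zfp36: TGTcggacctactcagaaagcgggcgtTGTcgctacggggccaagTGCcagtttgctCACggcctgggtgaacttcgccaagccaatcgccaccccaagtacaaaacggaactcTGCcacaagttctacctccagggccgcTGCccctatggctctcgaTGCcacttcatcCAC
Zfp36l1: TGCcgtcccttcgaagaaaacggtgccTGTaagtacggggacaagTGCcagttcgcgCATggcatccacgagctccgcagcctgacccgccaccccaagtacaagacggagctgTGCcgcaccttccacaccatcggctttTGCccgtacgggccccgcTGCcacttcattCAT
Zfp36l2: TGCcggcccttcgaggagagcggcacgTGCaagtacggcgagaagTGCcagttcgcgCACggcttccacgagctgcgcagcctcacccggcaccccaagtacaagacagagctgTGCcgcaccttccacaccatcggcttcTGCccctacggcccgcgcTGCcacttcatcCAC

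Over this stretch Zfp36l1 and Zfp36l2 shared 87.4% of bases, and only 4 of 58 codons encoded another residue. Zfp36 shared 67.8% of bases with Zfp36l1 and 69.0% with Zfp36l2, with 19 and 18 codons that encoded another residue. Zfp36l1 and Zfp36l2 were thus the closer pair in sequence. In B-lineage cells Zfp36 and Zfp36l2 stood farthest apart in the ratios given further on, which is the contrast the members were chosen by. This was not so in every class.

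Each member's own 3′ untranslated region holds 1 copy of the nonamer TTATTTATT, read on the sense strand, which is the binding sequence of the family. It is shown because family members can bind each other's mRNAs through it. Capitals mark the nonamer in windows at chr7:28376950-28376979, chr12:80108166-80108195 and chr17:84184913-84184942.
Zfp36: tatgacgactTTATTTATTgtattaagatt
Zfp36l1: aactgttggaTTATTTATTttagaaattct
Zfp36l2: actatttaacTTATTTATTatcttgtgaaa

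Each also holds 3 overlapping or separate copies of the shorter heptamer TATTTAT, 1 of which lies inside the nonamer. A match of letters is a description and does not show binding in these cells.

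The libraries held 9681 and 8932 cell barcodes with 59176459 and 58381292 UMIs (single molecules counted once) w/o and w/ butyrate, and 8774 and 8013 cells were kept. They shared 25 barcodes. Cells were sorted into 6 classes by UMIs of a few defining genes, with 4130 and 3883 B-lineage cells, 950 and 851 CD4+ T cells, 183 and 162 Foxp3+ T cells, 1603 and 1643 CD8+ T cells, 1056 and 825 Cd4-Cd8a- T cells and 36 and 30 Lyz2+ myeloid cells, leaving 816 and 619 in no class. The Cd4-Cd8a- class is the T cells without a UMI of Cd4, Cd8a or Foxp3. It can therefore hold CD4+ or CD8+ T cells whose transcript was missed, and its makeup was not tested. Markers not used to sort matched the names of the B-lineage, CD8+ and Foxp3+ classes. In the B-lineage class Cd79b was found in 99.1% and 99.3% of cells, Cd8b1 in 98.0% and 98.2% of CD8+ T cells and Ikzf2 in 80.3% and 75.3% of Foxp3+ T cells. The T cell classes were less well set apart by other lists. The summed level of 3 CD8+ T cell genes was 1852 and 1928 CPM in CD8+ T cells, and 763 and 758 CPM in CD4+ T cells. Foxp3+ T cells had 960 and 694 CPM of 3 cycling markers, and CD4+ T cells 161 and 107 CPM. The part of cycling cells in differences between these 2 classes was not tested. Free RNA was low. Cd79b, a B cell gene, was measured in CD8+ T cells at 1.70% and 1.57% of its B-lineage level.

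Levels are given as CPM, UMIs per 1000000 UMIs of the class, and each member is compared only with itself across classes. Zfp36 was highest in Lyz2+ myeloid cells, at 899 CPM (797 to 1010) w/o and 1013 CPM (910 to 1123) w/ butyrate. It was next highest in B-lineage cells, at 259 and 366 CPM, and lowest in CD8+ T cells, at 92.5 and 94.8 CPM. The myeloid level was 9.72 and 10.7 times the CD8+ level. Among T cells w/o butyrate the order was Foxp3+ at 159 CPM, CD4+ at 145 CPM and Cd4-Cd8a- at 130 CPM, and each of these neighbours overlapped within counting error. W/ butyrate the Foxp3+ level of 233 CPM stood clear of the CD4+ level of 150 CPM, which again overlapped with 138 CPM in Cd4-Cd8a- T cells.

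Zfp36l1 had another order. It was highest in B-lineage cells, at 513 CPM (504 to 523) w/o and 562 CPM (552 to 572) w/ butyrate, and lowest in CD8+ T cells, at 204 and 171 CPM. Foxp3+ T cells came second, at 321 and 273 CPM, the latter within counting error of the class below it. The Cd4-Cd8a- T cells (258 and 239 CPM), CD4+ T cells (251 and 223 CPM) and myeloid cells (225 and 228 CPM) lay close together, and their intervals overlapped in both libraries.

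Among the 6 classes Zfp36l2 peaked in a T cell class. It was highest in Cd4-Cd8a- T cells, at 713 CPM (691 to 736) w/o and 614 CPM (592 to 637) w/ butyrate, followed by CD4+ T cells at 699 and 529 CPM, and w/o butyrate these intervals overlapped. The Cd4-Cd8a- class is set by absent UMIs and is not shown to be a separate population. CD8+ T cells had 513 and 433 CPM and Foxp3+ T cells 454 and 389 CPM. By CPM Zfp36l2 was thus lower in Foxp3+ than in CD4+ T cells in both libraries while Zfp36l1 was higher there. At equal depth per cell this order of Zfp36l2 was not seen. Foxp3+ T cells then had 162 and 126 UMIs per 100 cells, CD4+ T cells 158 and 112, and CD8+ T cells 110 and 90.2. The shares of cells with a UMI were then 62.6% and 57.9% in Foxp3+ and 71.2% and 58.4% in CD4+ T cells. B-lineage cells had 334 CPM w/o butyrate, which overlapped with the myeloid level of 304 CPM, and 218 CPM w/ butyrate, the lowest of the 6 classes. The myeloid level w/ butyrate, 481 CPM, overlapped with those of CD4+ and CD8+ T cells. NK cells, gated separately and described at the end, had 1070 and 689 CPM of Zfp36l2, so that a high level was not particular to T cells. By CPM Zfp36 and Zfp36l1 were thus both lowest in CD8+ T cells across the classes, and Zfp36l2 was not. For Zfp36l1 w/o butyrate the CD8+ level was within counting error of the myeloid level.

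**Figure D1:**
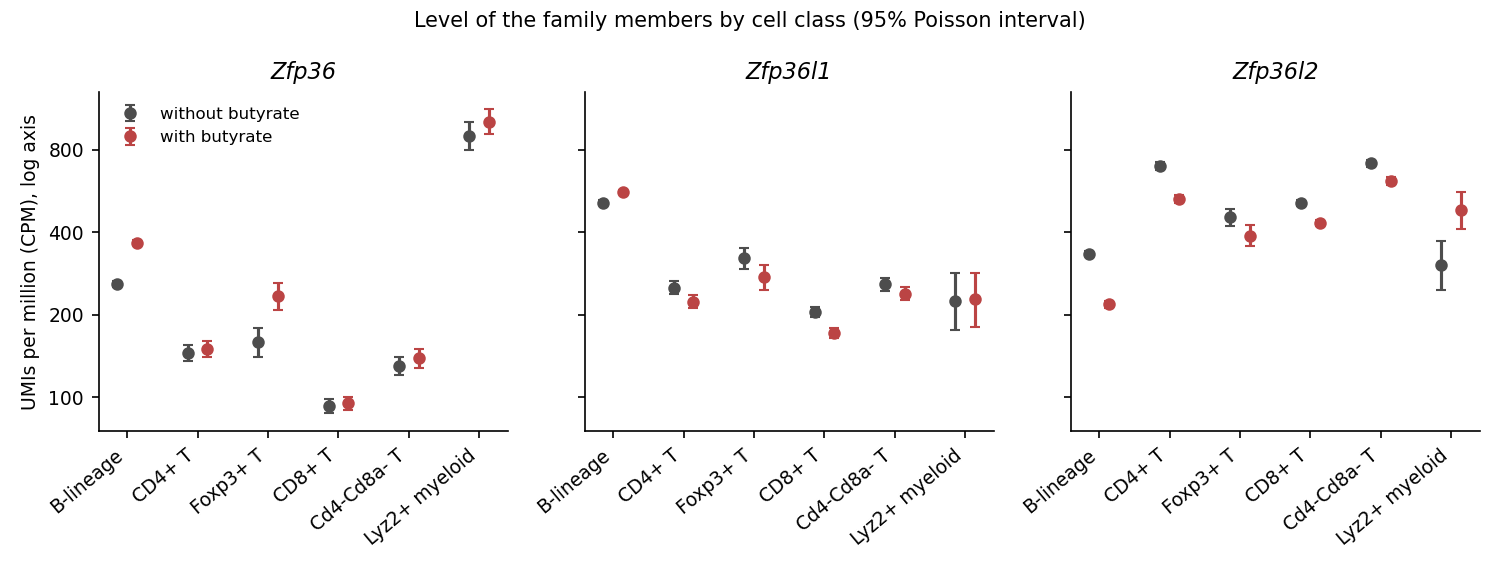
Level of each member in CPM (log axis) in 6 cell classes, with 1 point per library (dark, w/o butyrate; red, w/ butyrate) and bars for the 95% Poisson interval. Zfp36 peaks in myeloid cells at 899 and 1013 CPM, Zfp36l1 in B-lineage cells at 513 and 562 CPM, and Zfp36l2 in Cd4-Cd8a- T cells at 713 and 614 CPM.

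Genes with the most similar course over the 6 classes in both libraries (12 values, Pearson r of log2(CPM + 10), 4429 genes compared) differed for each member. They were Skap2 (r = 0.985), Bri3, Sbno2, Scamp2 and Cltc (r = 0.979) for Zfp36. They were Nfkbid (r = 0.979), 1110059E24Rik, Mif4gd, Ccr6 and Wbp2 (r = 0.944) for Zfp36l1, where Ccr6 is a chemokine receptor of B cells. They were Pcgf5 (r = 0.914), Bbc3, Ssh2, Tmem71 and Tbl1x (r = 0.874) for Zfp36l2, where Bbc3 encodes the pro-apoptotic protein Puma. Among the members themselves r was 0.22 for Zfp36 with Zfp36l1, -0.52 for Zfp36 with Zfp36l2 and -0.59 for Zfp36l1 with Zfp36l2. The 12 values share 2 libraries and 1 depth per class, and these correlations are descriptions. For Zfp36 the myeloid values, 899 and 1013 CPM from 36 and 30 cells, lay far above the other classes (366 CPM at most). Its r was not taken without them.

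In B-lineage cells Zfp36 was higher and Zfp36l2 lower w/ butyrate, and Zfp36l1 was close to level. Zfp36 had 5808 UMIs, or 259 CPM (252 to 266), w/o butyrate and 7836 UMIs, or 366 CPM (358 to 374), w/ butyrate, a log2 ratio of 0.48 (0.44 to 0.53). Zfp36l2 had 7484 UMIs, or 334 CPM (326 to 341), w/o and 4668 UMIs, or 218 CPM (212 to 224), w/ butyrate, a log2 ratio of -0.59 (-0.64 to -0.54). The libraries did not overlap for either gene within counting error, and the directions were opposite. Zfp36l1 had 513 and 562 CPM, a log2 ratio of 0.13 (0.09 to 0.17), which was between 0.04 and 0.14 under the processing alternatives and was 0.04 at equal depth per cell.

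Log2 ratios are of CPM + 10, w/ over w/o butyrate, and a gene is counted as higher or lower at 0.25 or more in size. Among the 1199 genes with at least 100 CPM in a library of the B-lineage class, 3.42% were higher and 3.67% lower by this measure, and their ratios ran from -0.19 at the 5th to 0.22 at the 95th percentile. Zfp36 had the third highest ratio of the 1199 genes, after Il4i1, an amino acid oxidase induced by interleukin-4, at 0.51 and Cirbp, a cold-inducible RNA-binding protein, at 0.49. Zfp36l2 had the 17th lowest ratio. Since the members were chosen by this contrast, these places describe them and test nothing.

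**Figure D2:**
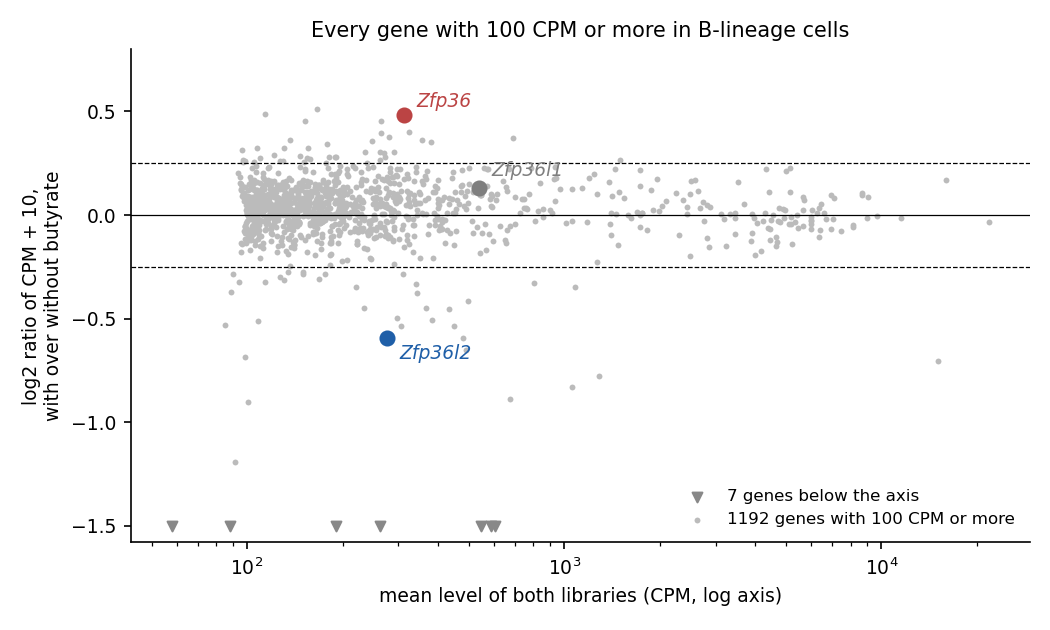
Log2 ratio of CPM + 10, w/ over w/o butyrate, against the mean level of both libraries (CPM, log axis) for 1199 genes in B-lineage cells, with dashed lines at 0.25 and -0.25 and triangles for 7 genes below -1.5. Zfp36 lies at 0.48 near the top of the cloud, Zfp36l1 at 0.13 inside it, and Zfp36l2 at -0.59 below it.

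The share of cells showed the same pattern. With every cell thinned to 2000 UMIs, 39.1% (37.6 to 40.6) of B-lineage cells had a Zfp36 UMI w/o and 49.8% w/ butyrate. For Zfp36l2 these shares were 46.4% and 32.4%, and for Zfp36l1 62.4% and 62.4%. Cells with 3 or more UMIs after thinning made up 3.77% and 7.76% for Zfp36, and 7.46% and 3.91% for Zfp36l2. The differences were thus seen in both shares, which are drawn from the same UMIs as the CPM and are no separate support. No cell held more than 0.35% of a member's UMIs. Without thinning, 64.1% and 74.4% of cells had Zfp36, 85.5% and 86.1% Zfp36l1, and 69.6% and 54.9% Zfp36l2, at a median of 4402 and 4608 UMIs per cell.

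The members were found in the same cells about as often as their separate shares give. After thinning, 19.3% (18.1 to 20.6) of B-lineage cells w/o butyrate had both Zfp36 and Zfp36l2, where the product of the shares is 18.1%, and 16.8% (15.7 to 18.1) w/ butyrate, where it is 16.1%. Zfp36l1 and Zfp36l2 were found together in 30.3% of cells against a product of 28.9% w/o butyrate, and in 20.9% against 20.2% w/ butyrate. Cells with none of the 3 made up 14.1% and 14.0%. Co-detection was thus slightly above the product in both libraries. In CD4+ T cells Zfp36 and Zfp36l2 were found together in 16.3% of cells against a product of 17.2% w/o butyrate and in 13.2% against 14.0% w/ butyrate.

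The opposite directions of Zfp36 and Zfp36l2 were seen in each of 9 subsets of B-lineage cells, taken by 4 splits of the same cells. The members were chosen by this contrast, and 1 subset alone held 3907 and 3725 of the 4130 and 3883 cells. The count of subsets therefore describes the contrast and tests nothing. Plasma cells, gated separately and described at the end, had log2 ratios of -2.57 for Zfp36 and 0.15 (-0.36 to 0.65) for Zfp36l2. In cells with a UMI of Ighd, the IgD heavy chain of naive B cells, Zfp36 was 267 CPM w/o and 374 CPM w/ butyrate (log2 ratio 0.47) and Zfp36l2 353 and 223 CPM (-0.64). In the 223 and 158 cells without Ighd the log2 ratios were 0.41 (0.21 to 0.61) and -0.25 (-0.49 to -0.01). In cells with a UMI of a cycling gene they were 0.51 and -0.24, and in cells without one 0.45 and -0.66. The Zfp36l2 ratio was thus larger in size in Ighd+ and non-cycling cells than in their counterparts, with intervals that did not overlap, while those of Zfp36 did. By depth the Zfp36l2 ratio was -0.69 (-0.78 to -0.59) under 4000 and -0.49 (-0.58 to -0.40) at 6000 or more UMIs. The counterparts were deeper, at a median of 5310 and 5337.5 UMIs without and 4382 and 4596 with Ighd. The medians were 6695 and 5742 with and 4340 and 4586 without a cycling-gene UMI. The part of depth in these contrasts was not tested.

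Zfp36l1 behaved in another way across these subsets. Its log2 ratio was 0.08 (0.05 to 0.12) in Ighd+ cells and 0.45 (0.27 to 0.62) in Ighd- cells. It was 0.06 in cells without and 0.54 (0.41 to 0.68) in cells with a cycling-gene UMI, where the level was 286 CPM w/o and 421 CPM w/ butyrate. By depth it was -0.01 in cells under 4000 UMIs, 0.13 in those from 4000 to under 6000 and 0.28 in those with 6000 or more. The ratio of Zfp36l1 was thus near 0 in cells under 4000 UMIs and small in Ighd+ and in non-cycling cells. It was higher in deep, in Ighd- and in cycling cells. The cycling cells differed in depth between the libraries, with a median of 6695 UMIs w/o and 5742 w/ butyrate. The part of depth and of plasma cells in the ratios of these subsets was not tested. The splits were made separately, and no subset joins these traits.

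Other cell types and responses that moved with the libraries were measured in the same class. The summed level of 4 plasma cell markers in B-lineage cells was 956 CPM w/o and 322 CPM w/ butyrate, that of 3 cycling markers 117 and 55.8 CPM, and that of 6 T cell markers 65.5 and 65.7 CPM. With plasma and cycling cells left out, an alternative chosen after seeing the data, the log2 ratios were 0.45 for Zfp36, 0.05 for Zfp36l1 and -0.67 for Zfp36l2. The summed level of 17 interferon response genes was 596 and 396 CPM. Among cells with under 5 UMIs of these genes the ratios were 0.48 for Zfp36 and -0.60 for Zfp36l2. Among the 212 and 107 cells with 5 or more they were 0.62 (0.35 to 0.88) and -0.29 (-0.55 to -0.03). The median mitochondrial share was 4.17% and 4.31%. A lower CPM cannot be told apart from a rise in the other RNA of the same cells.

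**Figure D3:**
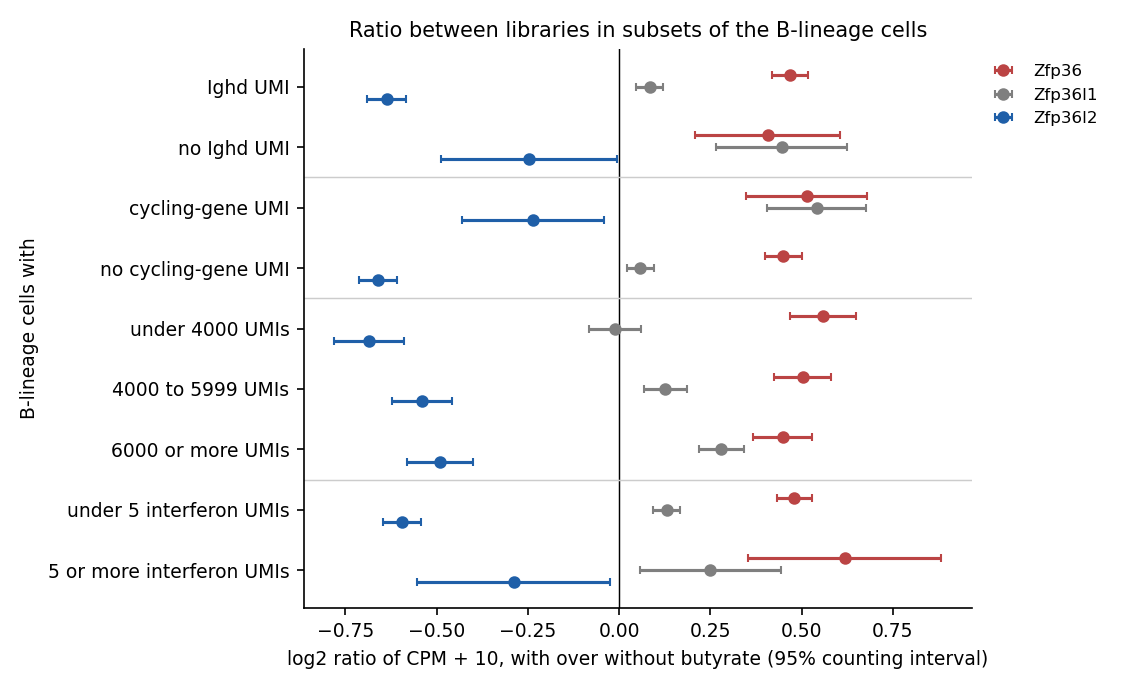
Log2 ratio of CPM + 10, w/ over w/o butyrate, of each member in subsets of the B-lineage cells by Ighd, cycling genes, depth and interferon response genes, with bars for the 95% counting interval. Zfp36 lies to the right of 0 and Zfp36l2 to its left in all 9 subsets, and Zfp36l1 ranges from -0.01 under 4000 UMIs to 0.54 in cells with a cycling-gene UMI.

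Within B-lineage cells Zfp36 was higher in cells with more immediate early UMIs, and Zfp36l2 differed less. The immediate early list holds 22 genes, most of them, such as Fos and Egr1, known to be transcribed within minutes of a stimulus. None of the 3 members is in it. In cells binned after seeing the data by their UMIs of these genes at equal depth, Zfp36 w/o butyrate was 180 CPM under 10 UMIs, 305 CPM at 10 to 19, 424 CPM at 20 to 29, 570 CPM at 30 to 39 and 750 CPM at 40 or more. Zfp36l2 in the same bins was 300, 364, 382, 458 and 311 CPM w/o butyrate and 201, 233, 225, 217 and 232 CPM w/ butyrate. Zfp36l1 was 442 CPM in the lowest and 915 CPM in the highest bin w/o butyrate, and 472 and 760 CPM w/ butyrate. Zfp36 was thus higher in each bin than in the one below it in both libraries, and Zfp36l2 w/ butyrate stayed within a narrow range. Depth went down across these bins, from a median of 4813 to 3393 UMIs per cell w/o and from 5110 to 3756 w/ butyrate. The CPM of the members was also lower in deeper cells, as for Zfp36l1 w/o butyrate with 696 CPM under 4000 UMIs and 389 CPM at 6000 or more, and for Zfp36 with 338 and 207 CPM, and the part of depth in the course over the bins was not tested.

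The ratios between the libraries were also taken within each bin. The log2 ratios of Zfp36 were 0.35, 0.40, 0.46, 0.38 and 0.19 from the lowest to the highest bin, and those of Zfp36l2 were -0.55, -0.62, -0.74, -1.05 and -0.41. In the highest bin, with 41 and 43 cells, both intervals included 0 (-0.16 to 0.54 and -1.02 to 0.20). The mean number of immediate early UMIs per thinned B-lineage cell was 11.8 w/o and 13.3 w/ butyrate.

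**Figure D4:**
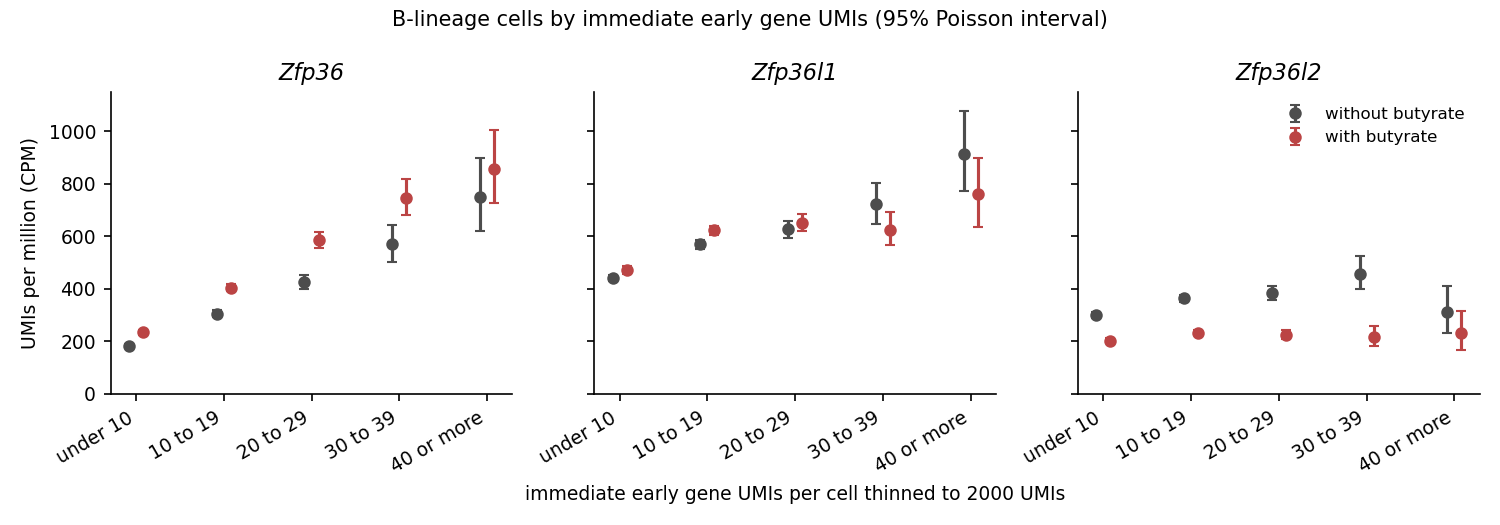
Level of each member in CPM in B-lineage cells binned by their immediate early gene UMIs after thinning to 2000 UMIs, with 1 point per library (dark, w/o butyrate; red, w/ butyrate) and bars for the 95% Poisson interval. Zfp36 runs from 180 to 750 CPM w/o and from 233 to 856 CPM w/ butyrate, and Zfp36l2 lies between 201 and 233 CPM in every bin w/ butyrate.

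In T cells Zfp36l2 had a log2 ratio below 0 in all 4 classes, and it passed 0.25 in size in CD4+ T cells. Zfp36 passed it in Foxp3+ T cells, though not under every gate. In CD4+ T cells Zfp36l2 had 699 CPM w/o and 529 CPM w/ butyrate, a log2 ratio of -0.40 that lay 28th lowest of the 1174 genes with at least 100 CPM, of which 1.11% were higher and 5.54% lower. The share of thinned CD4+ T cells with a Zfp36l2 UMI was 71.2% and 58.4%. Zfp36 in these cells was 145 and 150 CPM, with overlapping intervals and a log2 ratio of 0.04, and Zfp36l1 had 251 and 223 CPM (-0.16). The pattern of B-lineage cells was thus seen for Zfp36l2 in CD4+ T cells and not for Zfp36, and the difference between the classes was not tested. Each T cell class was deeper w/ butyrate. The median UMIs per cell w/o and w/ butyrate were 5270.5 and 6098 in CD4+, 4839 and 5379 in Foxp3+, 6773 and 7890 in CD8+ and 4938 and 5622 in Cd4-Cd8a- T cells. At equal depth per cell, Zfp36l2 UMIs per 100 CD4+ T cells were 158 w/o and 112 w/ butyrate. They were 162 and 126 in Foxp3+, 110 and 90.2 in CD8+ and 159 and 133 in Cd4-Cd8a- T cells. Zfp36l2 was thus lower w/ butyrate at equal depth in all 4 classes, though these values carry no interval. The part of depth in the size of the T cell ratios was not tested.

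In CD8+ T cells the ratios were smaller. Zfp36l2 had 513 CPM w/o and 433 CPM w/ butyrate (log2 ratio -0.24), Zfp36l1 204 and 171 CPM (-0.24) and Zfp36 92.5 and 94.8 CPM (0.03). None of the 3 reached the size of 0.25 that counts as higher or lower, which 0.484% and 4.55% of 1032 genes did in each direction. In Cd4-Cd8a- T cells the log2 ratios were -0.21 for Zfp36l2, -0.11 for Zfp36l1 and 0.09 for Zfp36. In both classes the interval of Zfp36 included 0, as did that of Zfp36l1 in Cd4-Cd8a- T cells (-0.22 to 0.00).

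In Foxp3+ T cells, the regulatory T cells, Zfp36 had 254 UMIs, or 159 CPM, w/o and 317 UMIs, or 233 CPM, w/ butyrate, a log2 ratio of 0.53 (0.30 to 0.76). In this small class 6.32% of 1472 genes were higher and 15.7% lower, so that differences past 0.25 were more common than in B-lineage cells. The ratio was 0.28 when each cell weighed the same and 0.22 with Il2ra and Ctla4 or Ikzf2 as the gate, and 1 cell held 8.52% of the Zfp36 UMIs w/ butyrate. Zfp36l1 was 321 and 273 CPM (-0.23) and Zfp36l2 454 and 389 CPM (-0.22).

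The myeloid class was too small for its ratios to be read. Zfp36l2 had 96 UMIs in 36 cells w/o and 169 UMIs in 30 cells w/ butyrate, a log2 ratio of 0.64, but 1 cell held 29.6% of the UMIs w/ butyrate and the ratio was 0.01 in thinned cells. Zfp36 had 899 and 1013 CPM (0.17) and Zfp36l1 225 and 228 CPM (0.02), with intervals that included 0.

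**Figure D5:**
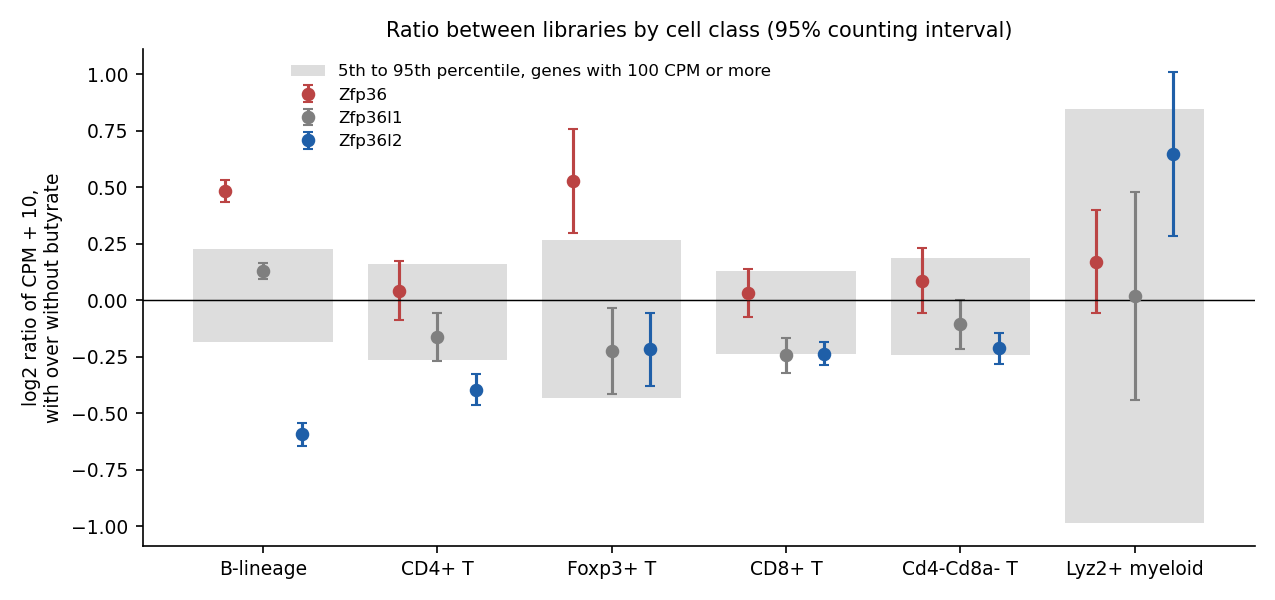
Log2 ratio of CPM + 10, w/ over w/o butyrate, of each member by class, with bars for the 95% counting interval and grey for the 5th to 95th percentile of genes with 100 CPM or more. Zfp36 at 0.48 and Zfp36l2 at -0.59 lie outside the grey range in B-lineage cells, as do Zfp36l2 at -0.40 in CD4+ T cells, Zfp36 at 0.53 in Foxp3+ T cells and, just below the range, Zfp36l1 at -0.24 in CD8+ T cells.

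Genes of the machinery that the family works through were counted about as rarely as all genes in B-lineage cells. The counts here are over the 10376 genes with at least 50 UMIs, of which 1.22% were higher and 2.43% lower, with a median log2 ratio of 0.03. At such shares a short list is likely to hold few or no counted genes, so these counts do not set the lists apart. None of 19 genes of deadenylation was counted in either direction, among them Cnot1, the scaffold of the CCR4-NOT complex, at 0.12. Btg1, an adaptor of the deadenylase, was 1454 CPM w/o and 1458 CPM w/ butyrate (0.00), Btg2 was at -0.11 and Pabpc1, the poly(A)-binding protein, at 0.11. Of 18 genes of decapping and exonuclease decay 17 had enough UMIs and none was counted, with the decapping helicase Ddx6 at 0.16.

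Genes of the proteins that compete with the family or act on it were also counted about as rarely as all genes. Of 12 other binders of AU-rich elements and stem-loops none was counted, with Hnrnpd at 0.18, Pcbp1 at 0.00 and Hnrnpab at -0.01. Of 14 kinases, phosphatases and 14-3-3 proteins that act on Zfp36 none was counted. The highest of the abundant ones were the 14-3-3 genes Ywhaz (0.19) and Ywhaq (0.04) and the phosphatase subunit Ppp2ca (0.00), and the lowest were Ywhae (-0.07), Dusp1 (-0.06), which switches off p38, and Ywhah (-0.03). Mapk14, which encodes p38 itself, was 20.1 and 24.7 CPM (0.21).

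Transcripts known as targets of the family had ratios on both sides of 0. Of 30 such genes 19 had enough UMIs in B-lineage cells, none was higher and 3 were lower, where 1.22% and 2.43% of all genes were, and the median log2 ratio was 0.03, beside 0.03 over all genes. The 3 were Ccnd2, a D-type cyclin, with 165 CPM w/o and 134 CPM w/ butyrate (-0.28), Plk2 (-0.32) and the chemokine gene Ccl4 (-0.31). The lowest abundant ones after Ccnd2 were Ccnd3 (-0.13) and Bcl2 (-0.13), and the highest were Klf2 (0.22), Cd69 (0.11) and Pim1 (0.09). Tnf, the classical target of Zfp36, had 61 and 79 UMIs in the whole class (0.11). In CD4+ T cells 16 targets had enough UMIs, none was higher and 3 were lower, where 4.33% of 8571 genes were higher and 5.30% lower. In CD8+ T cells 2 of 18 were higher and 1 lower, where 1.05% and 2.32% of all genes were. In Cd4-Cd8a- T cells 2 of 16 were higher and 1 lower, where 7.01% and 4.30% were. In Foxp3+ T cells 3 of 15 were higher and 6 lower, where 14.5% and 16.1% were. Ccl4, lower in B-lineage cells, was higher in CD8+ (1.18) and Cd4-Cd8a- T cells (1.94).

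Genes that hold the nonamer of the family had the same median ratio as the others in B-lineage cells. Of 9776 genes with a 3′ untranslated region in the annotation, 804 (8.22%) held TTATTTATT on the sense strand. Of these 0.871% were higher and 2.36% lower w/ butyrate in B-lineage cells, against 1.21% and 2.23% of the 8972 genes without it, and the median log2 ratio was 0.03 in both. The regions with the nonamer were longer, with a median of 2378 bases against 1082. In CD4+ T cells 4.39% of the 683 genes with the nonamer were higher and 6.30% lower, against 4.22% and 5.13% of those without, and in CD8+ T cells 0.268% of 747 were higher and 2.68% lower, against 1.08% and 2.24%, where 1.05% and 2.32% of all 9490 genes were.

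Immediate early genes differed by class. In B-lineage cells 3 of 22 were higher and none lower, where 1.22% and 2.43% of all genes were, with a median log2 ratio of 0.11. They were Jund with 1360 CPM w/o and 1638 CPM w/ butyrate (0.27), Egr1 (0.50), which had 63.5 and 94.1 CPM and so lay below 100 CPM, and Egr3 (0.28). Ier2 (0.25, just under the limit) and Junb (0.23) followed, and the lowest were Jun (-0.14), Btg2 (-0.11) and Dusp1 (-0.06). The Zfp36 ratio of 0.48 was thus exceeded in this list by Egr1 alone. In CD4+ T cells, where Zfp36 was level, none of 20 immediate early genes was higher and 11 were lower, where 4.33% and 5.30% of all genes were, with a median of -0.26, among them Cd69 (-0.45), Dusp2 (-0.41), Dusp1 (-0.39) and Fos (-0.37). Fewer were lower in the other T cell classes. In Foxp3+ T cells 4 of 16 were higher and 2 lower, where 14.5% and 16.1% of all genes were. In CD8+ T cells 0 of 21 were higher and 2 lower, where 1.05% and 2.32% were, and the median of -0.14 was also below 0. In Cd4-Cd8a- T cells 7 of 21 were higher and 3 lower, where 7.01% and 4.30% were. Of the 11 with at least 100 CPM in that class, however, 0 were higher and 3 lower, where 1.86% and 4.61% of 1129 genes were.

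Most interferon response genes were lower w/ butyrate. Of 17 with enough UMIs in B-lineage cells 14 were lower and none higher, where 2.43% and 1.22% of all genes were (median -0.39), with Bst2 at -0.69, and in CD4+ T cells all 17 were lower, where 5.30% of all genes were (median -0.78). Of 10 heat shock genes 3 were lower in B-lineage cells and none higher, Dnaja1 (-0.51), Hsph1 (-0.55) and Hspa8 (-0.35), with the chaperone Hsp90ab1 at -0.07. Of 12 genes of quiescence and homing none was counted in B-lineage cells, with Klf2 at 0.22, S1pr1, the receptor for egress from the node, at 0.07 and Ccr7, the homing receptor, at -0.13. The part of the interferon and heat shock genes in the Zfp36l2 ratio of CD4+ T cells was not tested.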

How the data were processed

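Both libraries were made with the 10x Genomics 3′ kit from pooled mediastinal lymph node cells. The authors deposited raw UMI counts per gene and cell, made with Cell Ranger 6.0.1 on mm10 per the submitters' processing notes. The annotation release is not given in the sources used here. Of 31053 gene identifiers 30934 were found in GENCODE M21 (GRCm38), which gave positions and sequences.

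A mitochondrial share above 10% or fewer than 200 detected genes excluded 186 and 327 barcodes. Scrublet in scanpy 1.11.5 ranked the remainder, of which 721 and 592 were dropped as doublets, 0.8% per 1000 cells (its own threshold marks 377 and 233). Classes were gated on UMIs: B-lineage, at least 2 Cd79a, no Cd3e, under 3 Lyz2; T cells, at least 1 Cd3e, under 2 Cd79a, split by Cd4, Cd8a and Foxp3; myeloid, at least 3 Lyz2, no Cd3e, under 2 Cd79a. UMIs were summed per class and library. Poisson, Clopper-Pearson and binomial-split intervals are exact. Thinning to 2000 UMIs left out 101 and 57 cells. The ratio step was tested on simulated B-lineage data (10369 genes), where 199 of 200 changed genes had the right direction.

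Members and lists were chosen with earlier results of these data known. The genes named are the members, of each list the 3 highest and lowest with at least 100 CPM, and the 5 most similar per member. Genes outside this rule (Il4i1, Cirbp, Cnot1, Mapk14, Tnf, Plk2, Ccl4, Egr1, Egr3, Hsph1) and the T cell values were named after their values were seen. Some results of the rule are not reported here.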

Additional observations from a re-analysis of the deposited data

Results flagged for a closer look

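The ratios of 2 members had a different sign in different classes, which drew them out for a closer look, and none of these differences was tested, since each condition has 1 library. Zfp36l1 had a log2 ratio of 0.13 in B-lineage cells but -0.16 in CD4+, -0.23 in Foxp3+ and -0.24 in CD8+ T cells. Zfp36l2 had 0.64 in Lyz2+ myeloid cells but -0.59 in B-lineage cells, -0.40 in CD4+, -0.22 in Foxp3+, -0.24 in CD8+ and -0.21 in Cd4-Cd8a- T cells, and the myeloid value rests largely on 1 cell with 29.6% of the UMIs. Cells that no class took in, 816 and 619 of them, are outside the comparisons of the report, and Zfp36 had a log2 ratio of 0.25 (0.12 to 0.37) there, from 175 to 210 CPM.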

How the results depend on the processing

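No paired analysis was possible because the labels give no replicate numbers and each condition has 1 library. Across 272 values under alternatives, 220 stayed within the counting interval (counts of genes within 1.5 times), 52 moved and 0 reversed a difference past 0.25. In B-lineage cells Zfp36 was between 0.40 and 0.50 and Zfp36l2 between -0.68 and -0.57 on the log2 scale in all 14 alternatives each. Zfp36 moved to 0.40 in cells with 10 to 19 immediate early UMIs. Zfp36l2 moved to -0.68 in thinned cells, -0.66 as a mean per cell and -0.67 without plasma and cycling cells. Zfp36l1 moved to 0.038 in thinned cells, 0.092 scaled without ribosomal, mitochondrial and immunoglobulin genes, 0.083 scaled by the median ratio, 0.046 as a mean per cell and 0.049 without plasma and cycling cells. Of the smaller classes, Zfp36l2 in Foxp3+ T cells was -0.05 with stricter gates and -0.04 among cells with under 5 interferon UMIs, and Zfp36 in CD4+ T cells ranged from -0.06 to 0.18. With all UMIs in place of thinned cells, 64.1% and 74.4% of B-lineage cells w/o and w/ butyrate had Zfp36, 85.5% and 86.1% Zfp36l1, 69.6% and 54.9% Zfp36l2, and 44.9% and 41.5% both Zfp36 and Zfp36l2. The numbers of genes higher and lower, 127 and 252 in B-lineage, 371 and 454 in CD4+ and 100 and 220 in CD8+ T cells, were 9 and 65, 10 and 74, and 5 and 35 past 0.5. They were 894 and 771, 1069 and 1020, and 738 and 846 with a pseudocount of 1 CPM, and 171 and 257 in CD4+ T cells with at least 200 UMIs. The heptamer in place of the nonamer left the median at 0.03. The Foxp3+ and myeloid classes hold few cells, 183 and 162, and 36 and 30.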

Other observations

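Some small classes, gated after seeing the data, had values of the family that the 6 classes do not show. Plasma cells (Jchain with Sdc1 or Tnfrsf17) had 208 CPM of Zfp36 in 42 cells w/o and 26.6 CPM in 12 cells w/ butyrate, from 227 and 11 UMIs, the opposite direction to the B-lineage class as a whole. Their Zfp36l1 was 90.5 and 191 CPM, and their Zfp36l2 85.9 and 96.6 CPM. NK cells (Ncr1 or Klrb1c without Cd3e) had the highest Zfp36l2 level measured, 1070 CPM in 20 cells w/o and 689 CPM in 32 cells w/ butyrate, a log2 ratio of -0.63. Gamma-delta T cells (Trdc with Cd3e) were an exception, with 751 and 653 CPM of Zfp36l2 in 166 and 143 cells. This was near the 713 and 614 CPM of Cd4-Cd8a- T cells, and the gamma-delta gate shares cells with the T cell classes. Dendritic cells (Flt3 without Cd3e) had 442 and 744 CPM of Zfp36 and 818 and 395 CPM of Zfp36l1 in 15 and 33 cells, and their Zfp36l2 was 84.9 and 202 CPM, a log2 ratio of 1.16 (0.41 to 1.96). These are pools of few cells, and the makeup of each pool was not tested.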
